A study of Homo sapiens with 4 samples.

Results

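The sites described here are places where both size-matched input libraries of an eCLIP experiment carried a peak and neither eCLIP library did. They are called input-only sites. A site is a peak of input 1 that shares at least 1 base on the same strand with a peak of input 2 and none with a peak of eCLIP replicate 1 or eCLIP replicate 2. The sites were thus chosen by the deposited peaks of all 4 libraries, so their presence in the inputs and absence from eCLIP is a description and was not tested. Counted once each, 1096 of the 60227 distinct intervals of input 1 met the rule. With touching intervals merged they formed 1047 regions. In the list they filled 1157 lines, since a peak inside overlapping genes is written once for each. Counted on input 2 in the same way, 1043 of its 10483 distinct intervals met the rule. The whole series held 595484 lines.

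The study mapped the RNA bound by ZFR, which carries zinc fingers and a DZF domain, binds RNA and takes part in the control of alternative splicing. All 4 libraries came from Flp-In T-REx-293 cells, a derivative of the human embryonic kidney line HEK-293, with a FLAG-ZFR transgene integrated at the FRT site. The cells were polyclonal. Doxycycline at 1 µg/mL was given for 48 to 72 h to induce the transgene, and the cells were then crosslinked with ultraviolet light at 400 mJ/cm2. The 2 eCLIP libraries and the 2 inputs, numbered 1 and 2, share this genotype and treatment, and no library without the transgene was used here. The labels do not state whether replicates were grown separately.

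In eCLIP, protein and RNA are joined in living cells, the RNA is fragmented, and the protein of interest is pulled down with its fragments and run on a gel. The size-matched input is cut from the same size range of the gel without the pull-down. It therefore holds RNA joined to any protein of that size, together with fragments that entered the library by other routes, such as abundant structured RNA. Peaks found in inputs are used as the measure of what an eCLIP library can show without binding of the chosen protein.

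The lists differed widely in length. They held 458932 and 39168 distinct intervals in the eCLIP libraries and 60227 and 10483 in inputs 1 and 2. A listed peak had at least 3 reads, and 32.2% to 62.3% of the intervals of a library rested on that minimum. A site without an eCLIP peak may still have had eCLIP reads below the limits of the list. In input 1 many intervals were written as touching pieces: 53.5% of all its intervals touched or overlapped another, against 10.7% (117) of the input-only sites. Percentages below carry Wilson 95% intervals in brackets, which cover counting error only. Peaks of 1 library are not replicates, so sets of peaks were compared by their values and no test was made between them.

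The first question was how often a peak shared by the inputs was missing from eCLIP. Of the 2040 input 1 intervals found in input 2, 1096 or 53.7% (51.6 to 55.9) overlapped no eCLIP peak. Over all intervals of input 1 that share was 86.7%, so intervals shared by the inputs were missing from eCLIP less often than the list as a whole. Only 3.39% of input 1 intervals overlapped an input 2 peak at all. Counted on input 2, the share was 53.5% (51.3 to 55.7) for the 1949 intervals found in input 1 and 67.1% over its whole list. Of the 944 shared intervals that met an eCLIP peak, 401 met one in eCLIP replicate 1 only, 49 in eCLIP replicate 2 only, and 494 in both. Most were thus met by eCLIP replicate 1, the longest list.

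The share without an eCLIP peak fell with the number of reads. In input 1, 74.0% (70.3 to 77.4) of the shared intervals with 3 reads lacked an eCLIP peak, against 45.0% (40.6 to 49.5) of those with 6 to 10 reads and 12.02% (8.45 to 16.8) of those with over 20. Over all input 1 intervals the same shares were 89.1%, 70.1% and 15.9%. In input 2 the fall was smaller, from 63.2% (57.3 to 68.7) at 3 reads to 34.5% (29.8 to 39.5) at over 20. Over all input 2 intervals the shares were 74.5% at 3 reads, 50.5% (46.3 to 54.6) at 11 to 20 and 32.2% (28.01 to 36.7) at over 20. At 11 to 20 reads the shared intervals of input 2 stood at 50.1% (45.2 to 55.1), so in the 2 highest classes shared intervals and all intervals of input 2 lacked an eCLIP peak about equally often. Shared intervals made up 69.6% and 83.4% of all intervals in these classes. Among intervals with over 20 reads, 28 of 233 shared intervals of input 1 and 127 of 368 of input 2 were therefore input-only sites.

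**Figure D1:**
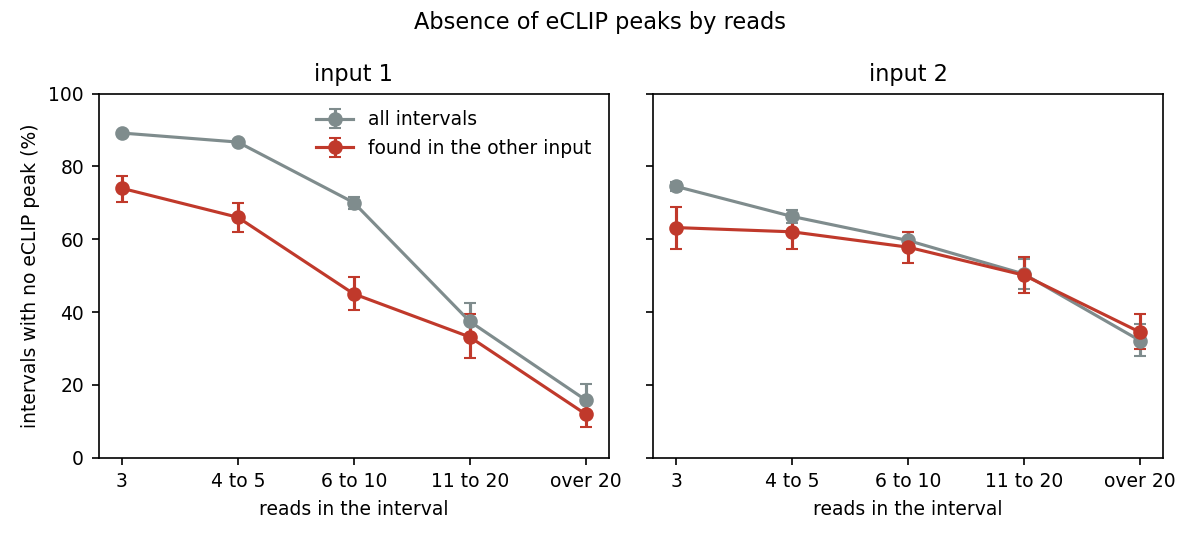
The percentage of intervals with no overlapping eCLIP peak (vertical axis) is plotted against the reads in the interval (horizontal axis, 5 classes) for input 1 (left) and input 2 (right); grey points are all intervals, red points those found in the other input, and bars are Wilson 95% intervals. The red points of input 1 fall from 74.0% to 12.02%, and those of input 2 from 63.2% to 34.5%.

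The rule turns on a single base, and few sites lay at that limit. Of the sites, 8 overlapped input 2 by 1 base, 84 by fewer than 10 bases, and the median overlap was 16 bases. On the eCLIP side, 4 sites lay directly next to an eCLIP peak, and 4 intervals shared by the inputs were removed by an eCLIP overlap of 1 base. On the opposite strand an eCLIP peak overlapped 7 sites, or 0.639% (0.310 to 1.31).

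Most sites were thinly covered in input 1 and better covered in input 2. In input 1 the lower quartile, median and upper quartile were 3, 4 and 6 reads, and the highest value was 66. For the peaks of input 2 that met the rule from their side the quartiles were 4, 7 and 12, and the highest value was 1018. At 3 reads, the minimum, stood 438 sites (40.0%, 37.1 to 42.9), compared with 62.3% of all input 1 intervals. Over 10 reads were found at 102 sites (9.31%, 7.73 to 11.2). The sites took 2.63% of the reads in distinct peaks of input 1. The 1043 input 2 peaks that met the rule from their side took 13.4% of those of input 2, with the peak of 1018 reads included. Over all distinct intervals, the median was 4 reads in input 2 and 3 in input 1, and the means were 9.37 and 3.96. The highest values there were 3017 and 711 reads, and such peaks raise the mean. Intervals found in 1 input alone had a median of 3 reads in both inputs. In input 1, 1.58% of the intervals with 3 reads and 71.3% of those with over 20 overlapped an input 2 peak. Asking for a peak in both inputs thus favours peaks with many reads.

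The overlapping peak of input 2 with most reads had more of them than input 1 at 74.2% of the sites, the same number at 14.9% and fewer at 10.9%. The median log2 ratio of input 2 to input 1 was 0.70. At the 494 intervals found in all 4 libraries the median log2 ratio was 0.19, with input 2 higher at 53.6%. Across the sites the reads of the 2 inputs rose together (Spearman's rho 0.57, and Pearson's r 0.70 on log2 reads, over 1096 sites that share 2 libraries and a common minimum of 3 reads). For intervals found in all 4 libraries rho was 0.76.

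**Figure D2:**
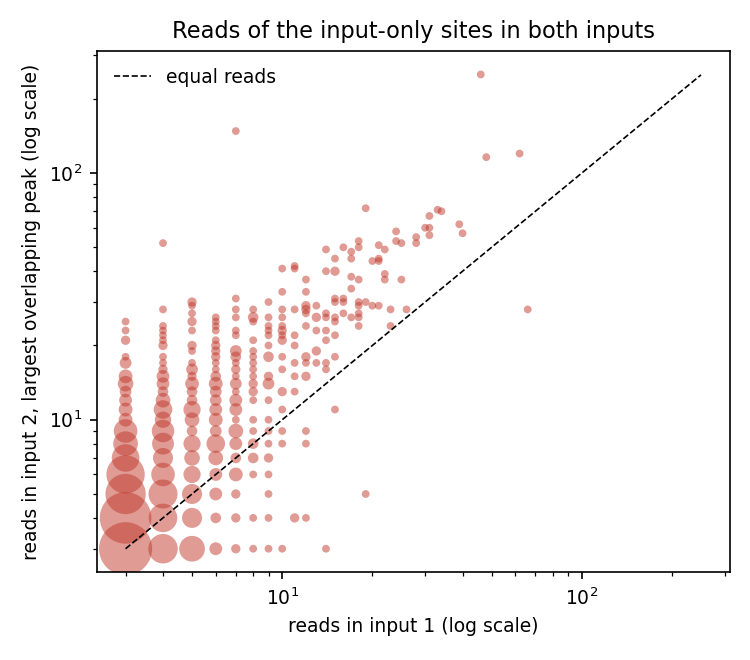
Reads of each input-only site in input 1 (horizontal axis, log scale) and in the overlapping peak of input 2 with most reads (vertical axis, log scale); the area of a point grows with the number of sites at those values, and the dashed line marks equal reads. Most sites lie above the line, and the densest points are at 3 to 5 reads in input 1.

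The 2 inputs placed their peaks at nearly the same base. Each deposited line gives a position inside the peak, read here as its summit. For the 1116 overlapping pairs of input 1 and input 2 peaks at the sites, the summits lay a median of 1 base apart (quartiles 1 and 3), and 54.7% (51.7 to 57.6) lay within 1 base of each other. For the 625 pairs at intervals found in all 4 libraries the median was 6 bases and 25.3% (22.0 to 28.8) lay within 1 base. For the 522 pairs at intervals shared by both inputs and 1 eCLIP library the median was 7 bases and the share 22.6% (19.2 to 26.4). Both ends of the peaks agreed to within 5 bases in 69.2% of the pairs at the sites, against 25.6% at intervals found in all 4 libraries. The sets differed in width, which limits how far apart summits and ends can lie. In input 1 the median was 18 bases at the sites and 33 at intervals found in all 4 libraries. Those intervals also gave 625 pairs from 494 intervals, against 1116 pairs from 1096 sites. The comparison was not made at equal width. Among the pairs with over 10 reads in input 1, 71.0% (61.8 to 78.8) of the summits lay within 1 base. Pairs with 10 or fewer reads reached 52.9% (49.8 to 56.0).

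The sites were also narrow. In input 1 their widths had a median of 18 bases (quartiles 14 and 22), and 74.1% measured 12 to 24 bases. Intervals of input 1 found in no other library had a median of 28 bases, with 13.2% in that range, and intervals found in all 4 libraries had a median of 33. With touching intervals left out, the medians were 18 bases for the sites and 37 for input 1 alone. The sites were narrower in every class of reads: 14 against 25 bases at 3 reads, 21 against 39 at 6 to 10, and 27.5 against 52.5 at over 20. In input 2 the medians were 21 bases at the sites and 24 in peaks of input 2 alone. By reads they were 14 and 24 bases at 3 reads, 18 and 22 at 4 to 5, 21 and 23 at 6 to 10, 25 and 26 at 11 to 20, and 29 and 31 at over 20. The difference in input 2 thus lay mostly in the peaks with the fewest reads. A wider interval has more bases with which to meet another peak, so width is not independent of the rule.

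**Figure D3:**
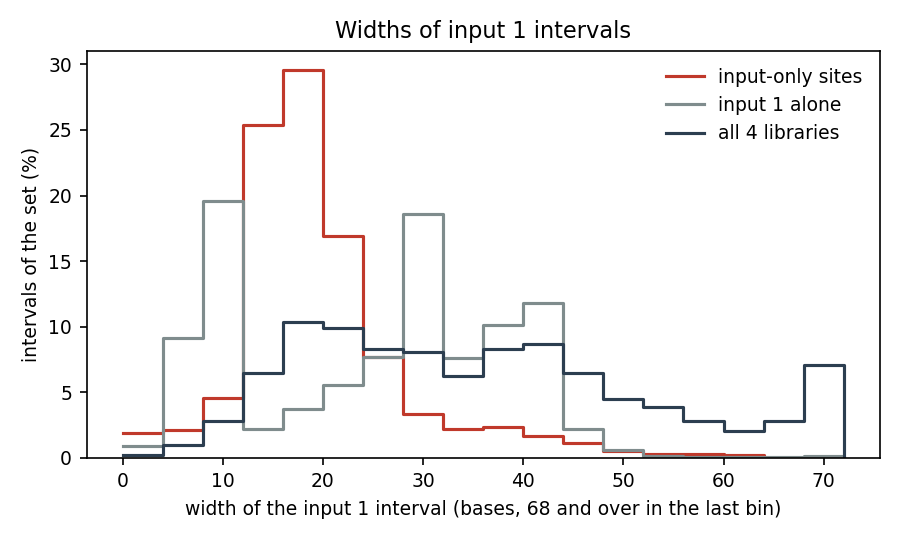
Histogram of the widths of input 1 intervals in bases (horizontal axis, bins of 4 bases) as the percentage of each set (vertical axis): input-only sites in red, intervals found in input 1 alone in grey, and intervals found in all 4 libraries in dark blue. The sites are concentrated between 12 and 24 bases, where the grey line is low.

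Many sites lay far from any eCLIP peak on their strand. The nearest eCLIP peak of either library on the same strand was a median of 2740 bases away (quartiles 363 and 59995), against a median of 447 bases for input 1 intervals found in no other library, which also lack an eCLIP peak by definition. Over 10 kb from eCLIP lay 441 sites, or 40.2% (37.4 to 43.2), compared with 7.75% (7.52 to 7.98) of the intervals of input 1 alone. Over 100 kb away lay 217 sites (19.8%) and 2.06% of the others. Leaving out touching intervals gave 41.4% and 8.40% over 10 kb. Counted on input 2, the shares over 10 kb were 41.2% (38.3 to 44.2) for the sites and 22.5% (21.5 to 23.6) for peaks of input 2 alone. Very near eCLIP the 2 inputs differed. In input 1, 3.47% of the sites and 2.96% of the intervals of input 1 alone lay within 10 bases of an eCLIP peak, and 9.12% and 10.8% within 50 bases. In input 2 the sites were fewer there than the peaks of input 2 alone, with 2.30% against 3.59% within 10 bases and 7.57% against 13.3% within 50 bases.

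The distance was also set against the reads. In input 1, at 3 reads 37.9% of the sites, and at over 20 reads 53.6% of 28 sites, lay over 10 kb from eCLIP; for input 1 alone these shares were 8.12% and 16.7% of 24. Counted on input 2, the share of sites over 10 kb from eCLIP rose over the classes of reads. It was 27.6% at 3 reads, then 41.2%, 42.9% and 45.6%, and 48.8% at over 20. The median distance of the sites was 967 bases in the first class and 9050 in the last. For peaks of input 2 alone the shares over 10 kb were 18.2%, 26.5%, 37.2%, 30.2% (of 86 peaks) and 6.67% (of 15). That share thus also rose up to 6 to 10 reads, where it came near that of the sites, and was lower at more reads. In input 1, sites over 10 kb from eCLIP and sites nearer to it had the same median of 4 reads, and median widths of 17 and 18 bases. The farthest was an interval of 18 bases on the minus strand of chromosome 14 at chr14:85669736-85669753, 3282871 bases from the nearest eCLIP peak. It had 7 reads in input 1 and 6 in input 2.

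**Figure D4:**
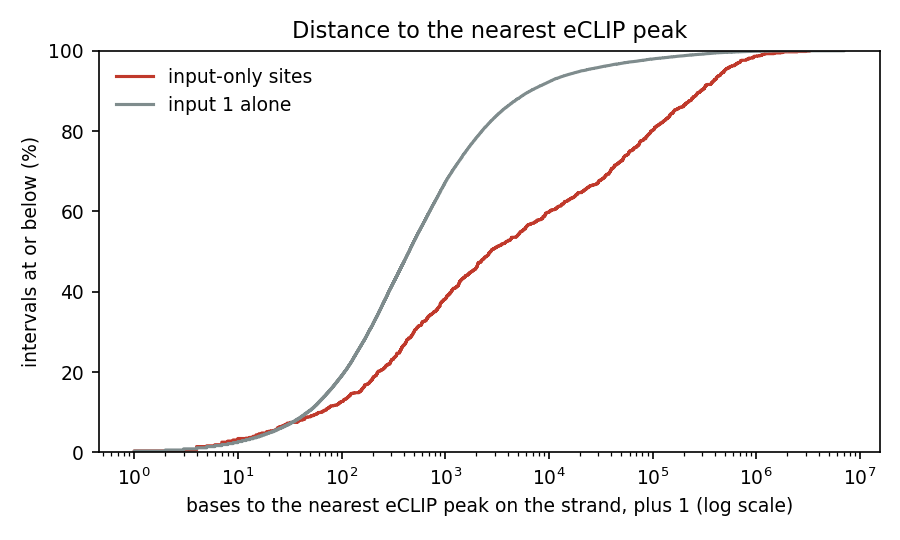
Cumulative percentage of intervals (vertical axis) by the distance in bases, plus 1, to the nearest eCLIP peak on the same strand (horizontal axis, log scale), for the input-only sites (red) and for intervals found in input 1 alone (grey). The lines run together up to about 50 bases and then part, with 59.8% of the sites and 92.3% of the others within 10 kb.

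The sites were scattered over 1022 genes, by the identifiers in the lists. Of these, 904 genes (88.5%, 86.3 to 90.3) held 1 site, 102 held 2, 15 held 3 and 1 held 4. With touching intervals merged, 71 genes held 2 or more regions. Neighbouring sites of 1 gene made 135 pairs, of which 52 touched each other and 71 lay over 10 kb apart. In 334 of the genes (32.7%, 29.9 to 35.6) every input 1 peak was an input-only site. Each gene was picked for holding a site, and the median was 3 input 1 peaks per gene. Among genes with a peak in both inputs that median was 5. The share is thus tied to the choice of genes and to their few input 1 peaks, and no share for other genes was computed.

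Genes with sites often had few eCLIP peaks or none. Of the 1022 genes, 243 or 23.8% (21.3 to 26.5) held no eCLIP peak anywhere, while of the 4631 genes with a peak in both inputs 7.08% held none. The rule asks for a stretch without eCLIP peaks, so this count is tied to it. By library, 24.5% of the genes with sites lacked a peak of eCLIP replicate 1 and 50.2% one of eCLIP replicate 2, against 7.49% and 27.6% of the genes with a peak in both inputs. Per gene with a site, the median number of peaks was 12 and 0 for eCLIP replicates 1 and 2, and 3 and 1 for inputs 1 and 2. Per gene with a peak in both inputs the medians were 34 and 2 for eCLIP and 5 and 1 for the inputs. Genes with sites spanned a median of 50991 bases between their outermost peaks, and genes with a peak in both inputs 48446. Among the 413 genes with a site over 10 kb from eCLIP, 56.7% (51.8 to 61.4) had no eCLIP peak. Of the 11275 genes with an input 1 peak, 10.1% had none. The 413 genes were picked by their distance from eCLIP peaks, so their share is largely set by that choice.

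The 10 strongest sites, ranked by the lower of their reads in the 2 inputs, had summits at nearly the same base in both inputs. All 10 had more reads in input 2 than in input 1, and their summits lay 0 to 2 bases apart. Of these sites, 7 lay over 10 kb from eCLIP, 6 lay in a gene without any eCLIP peak, and 5 were the only input 1 peak of their gene. Their widths ran from 20 to 35 bases.

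The first lay on the minus strand of chromosome 5 at chr5:149246773-149246806 (hg19), in the gene ENSG00000132915.6. It had 62 reads in input 1 and 120 in input 2, where the peak ran from 149246766 to 149246805. It was the only peak of either input in that gene, neither eCLIP library listed a peak there, and the nearest eCLIP peak on the strand was 315831 bases away. The second, at chr17:66342634-66342665 on the plus strand, had 48 and 116 reads. Its gene differed in holding 30 and 2 peaks in the eCLIP libraries, the nearest of them 6791 bases from the site.

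The third, at chr14:50053314-50053333 on the plus strand, had 46 reads in input 1 and 251 in input 2, which was the highest input 2 value among these 10. It lay 177 bases from an eCLIP peak, in a gene with 1 peak in each eCLIP library, of 110 and 26 reads. The fourth, at chr15:60401831-60401865 on the minus strand, had 40 and 57 reads, with the nearest eCLIP peak on the strand 238011 bases away. The fifth, at chr12:79271941-79271969 on the plus strand, had 39 and 62 reads, with the nearest eCLIP peak 62892 bases away. Low and high eCLIP coverage of the surrounding gene thus both occurred among the strongest sites, as the next one also showed.

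The sixth, at chr4:79072924-79072950 on the plus strand, had 34 and 70 reads and lay 43 bases from an eCLIP peak, in a gene with 189 and 5 eCLIP peaks. The other 4 had 31 to 33 reads in input 1 and 56 to 71 in input 2, and none of their genes held an eCLIP peak. They lay at chr5:63986326-63986353, chr4:33938985-33939012 and chr1:209879192-209879218 on the plus strand, and at chr5:135654141-135654168 on the minus strand. The one at chr4:33938985-33939012 was 1798397 bases from the nearest eCLIP peak.

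The site with most reads in input 1 was not among these 10. It lay at chr1:45187491-45187527 on the minus strand, with 66 reads in input 1 and 28 in input 2. The summits coincided, and an eCLIP peak lay 9 bases away.

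In all, 94 regions had over 10 reads in both inputs, the 10 strongest included. Their widths ran from 3 to 61 bases with a median of 26, and 48 lay on the minus strand. The summits of the 2 inputs lay within 1 base of each other in 72 of them (76.6%, 67.1 to 84.0). Over 10 kb from eCLIP lay 44 (46.8%, 37.0 to 56.8), against 40.2% of all sites. Of their 96 genes, 25 (26.0%, 18.3 to 35.6) held no eCLIP peak, against 23.8% of all genes with sites. Both shares were thus near those of the sites as a whole, and both are tied to the rule.

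The 10 genes with most regions, ties going to more reads in input 1, held 31 sites, of which 20 had at most 5 reads in input 1. The gene with 4, ENSG00000074800.9 on the minus strand of chromosome 1, had its sites between 8921086 and 8927183. At these sites input 1 had 3, 3, 5 and 4 reads and input 2 had 7, 5, 4 and 5. Each lay near an eCLIP peak, at 43, 24, 654 and 31 bases. Over the whole gene, eCLIP replicates 1 and 2 listed 34 and 15 peaks, and inputs 1 and 2 listed 23 and 11. Per 10000 listed peaks of the library these came to 0.709 and 3.58 for eCLIP and 3.65 and 9.82 for the inputs. By that share the inputs stood above the eCLIP library of the same number, though input 1 (3.65) and eCLIP replicate 2 (3.58) were close. These 10 genes were ranked by regions that the inputs list and eCLIP does not. Input and eCLIP counts in them are thus tied to the ranking, and the difference was not tested.

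The other 9 genes held 3 regions each and differed widely in their eCLIP peaks. The kinds below are examples, and not every gene belongs to them. On the plus strand of the X chromosome, sites between 104241692 and 104851564 had 30, 10 and 3 reads in input 1 and 60, 24 and 5 in input 2. That gene held 1 and 0 eCLIP peaks against 4 and 4 input peaks, and its sites lay 176709, 150838 and 433090 bases from eCLIP. On the minus strand of chromosome 15, between 50417518 and 50474856, the sites had 3, 3 and 6 reads in input 1 and 10, 3 and 20 in input 2. That gene had 0 peaks in both eCLIP libraries against 5 and 3. These 2 genes carried input peaks almost alone.

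A different kind was a long gene with many eCLIP peaks. On the plus strand of chromosome 19, sites between 30865800 and 31039239 had 4, 22 and 13 reads in input 1 and 23, 37 and 23 in input 2, in a gene with 571 and 25 eCLIP peaks against 51 and 12. On the minus strand of chromosome 2, a gene with 621 and 6 eCLIP peaks and 89 and 10 input peaks held sites with 4 reads each in input 1. Per 10000 listed peaks that gene had 13.0 and 1.43 in eCLIP and 14.1 and 8.93 in the inputs. Another kind was densely covered by all libraries: on the minus strand of the X chromosome, sites between 107969862 and 107972934 were 40 to 46 bases wide, with 6, 6 and 5 reads in input 1 and 4, 8 and 5 in input 2. They lay 18, 64 and 200 bases from eCLIP, in a gene with 77 and 42 eCLIP peaks. Some genes belonged to none of these kinds, such as a gene on the minus strand of chromosome 7 with 7 and 3 eCLIP peaks against 7 and 7 input peaks. Of the 31 sites, 14 lay over 10 kb from eCLIP and 25 had more reads in input 2.

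Along the gene the sites gathered at the ends. Position was measured between the outermost peaks of a gene over the 4 libraries, where these lay 5 kb or more apart and the gene had 20 peaks or more. This took in 575 of the 1157 lines of the sites, or 49.7%, against 83.3% of all lines of input 1 and 90.7% of eCLIP replicate 1. The other sites lay in genes with fewer peaks or shorter spans. The first of 10 equal parts held 21.9% (18.7 to 25.5) of the sites, against 13.7% of all input 1 peaks, 16.9% of input 2, and 15.9% and 15.6% of the eCLIP libraries. The last part held 17.0% (14.2 to 20.3), against 13.8% and 15.2% in the inputs and 9.65% and 8.77% in eCLIP.

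Just beyond the first part the sites were sparse. The second and the third part held 7.13% (5.30 to 9.53) and 5.39% (3.82 to 7.55) of them, where input 1 held 10.4% and 9.52% and eCLIP replicate 1 held 12.7% and 11.1%. Intervals of both inputs that met 1 eCLIP library had a similar pattern, with 20.4% (16.0 to 25.5) in the first part and 19.6% (15.4 to 24.7) in the last. For intervals found in all 4 libraries these shares were 15.1% (11.2 to 19.9) and 21.2% (16.7 to 26.6). The gathering at the ends was thus not seen in the input-only sites alone.

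The span itself rests on the peaks, and 20 of the 575 lines were the outermost peak of their gene. Without those, the first and last part held 20.4% (17.2 to 23.9) and 16.4% (13.5 to 19.7). With the span taken from eCLIP replicate 1 alone, 9.07% of the sites lay before its start and 4.63% beyond its end, against 1.76% and 2.90% of the intervals of input 1 alone. Inside that span the first part held 15.2% (12.2 to 18.8) of the sites and 11.97% (11.7 to 12.3) of the others, and the last part 13.4% (10.6 to 16.9) and 11.5% (11.1 to 11.8). The counting intervals then overlapped in both parts.

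**Figure D5:**
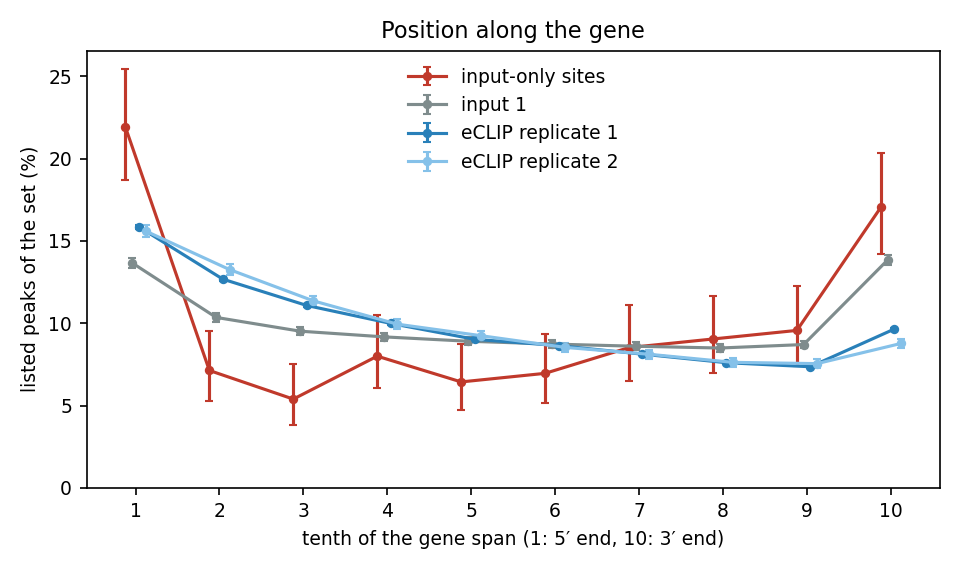
Percentage of listed peaks (vertical axis) in each of 10 equal parts of the gene span from the 5′ to the 3′ end (horizontal axis) for the input-only sites (red), all peaks of input 1 (grey) and both eCLIP libraries (blue); bars are Wilson 95% intervals. The sites reach 21.9% in the first part, 17.0% in the last part and 5.39% in the third.

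By strand the sites were even, with 50.5% (47.6 to 53.5) on the minus strand, whereas 58.4% (58.0 to 58.8) of all input 1 intervals lay there. After merging, the shares were 49.5% (46.5 to 52.5) and 47.9% (47.5 to 48.4). The uneven strands of input 1 thus went with its touching intervals and were not carried into the sites. By chromosome, chromosome 2 held 95 sites, or 8.67% (7.14 to 10.5), against 6.56% of input 1 and 5.49% of input 2. Chromosome 19 held 4.47% (3.40 to 5.86), against 4.80% of input 1 and 8.68% of input 2. Chromosome 11 held 5.11% (3.96 to 6.58), against 3.70% and 4.18%, and chromosome 10 held 3.47% (2.54 to 4.72), against 5.01% and 3.77%. These are examples from all the chromosomes, and no difference was tested. Listing under several genes was as common at the sites (4.84%, 3.72 to 6.27) as in input 1 as a whole (4.38%).

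The mitochondrial chromosome, which is transcribed on both strands into abundant RNA, held 3 sites, all on the plus strand. At chrM:15790-15824 input 1 had 14 reads and input 2 had 16. At chrM:13823-13843 they had 10 and 28, and at chrM:4087-4116 they had 7 and 31. All 3 lay 22 to 38 bases from an eCLIP peak, and the summits of the 2 inputs lay 13, 11 and 59 bases apart, unlike those of the strongest sites elsewhere.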

How the data were processed

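Per the submitters' processing notes, cutadapt, STAR and SAMtools were used and the build was hg19. Which peak caller, tool versions and settings were used was not given in the sources used here. For each library the authors deposited 1 peak list, with a p-value per peak of at most 0.05 and a score that is the whole part of 10 times its negative log10, capped at 1000 (0 where the p-value is written as 0). Reads were taken from the last field of the peak names, a meaning that the files do not state, and summits from the last column. Whole libraries were not counted here, so sequencing depth is unknown. Distinct intervals (highest reads kept) were compared on the same strand with a minimum overlap of 1 base in Python 3.11.15 with pandas 2.3.3 and SciPy 1.17.1. The functions for overlap, covered bases, distance and pairs of intervals were tested on simulated data. Those for touching neighbours within a list and for position along the gene were not. Distances are bases between interval ends on the same strand. Coordinates count from 1.

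The 17764 gene identifiers are given as in the files, since 0 matched the reference table of 59792 genes (GRCh38), so the gene lists planned by name were not used and the cell line was not checked by marker genes. No hg19 genome or annotation was used, so no sequence, exon or intron is given. Named were the 10 genes with most regions and the 10 regions with the highest lower value of reads in the inputs; at most 2 identifiers are printed. The sites and gene rules were chosen with earlier results of these data known. No test was made: with 2 libraries a group, the smallest exact two-sided permutation p is 0.33.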

Additional observations from a re-analysis of the deposited data

How the results depend on the processing

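The number of sites, of genes, the median reads in input 1 and the shares on the minus strand and in the last of 10 parts of the gene were recomputed under alternative settings. Counting each result under each setting, this gave 86 values. Of these, 66 stayed within 1.5 times the count or within the counting interval of the main value. Some could not move: counting lines once per gene leaves the number of genes and the share in the last part unchanged. Limiting all lists to p-values of 0.001 gave 430 sites in 432 genes, a median of 7 reads and 20.7% in the last part. At least 5 reads in both inputs gave 384 sites in 390 genes, a median of 7 reads and 20.7% (20.7447 before rounding). Lists of equal length gave 718 sites, a median of 6 reads and 21.1%. The last part held 13.4% on the span of eCLIP replicate 1 and 20.8% in all genes with at least 2 peaks.

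Leaving out 1 library gave 1145 sites (eCLIP replicate 2), 1497 (eCLIP replicate 1), 7032 (input 1) or 52229 (input 2), in 1067 to 10536 genes. With an input left out, the rule no longer asks for a second input peak, which the larger counts show. Over the same 4 settings the last part held 13.6% to 17.7%, the minus strand 48.7% to 59.2%, and the median was 3 to 4 reads; it was not computed without input 1. Of 2 alternatives chosen after seeing the data, asking that the whole chain of touching intervals be free of eCLIP peaks left 1086 sites, and leaving out touching intervals left 979. List length and the minimum of 3 reads limit what absence from a list can show.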
